A study of Mus musculus with 8 samples.

Results

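The RNA of 10 lens transcription factors was followed in fiber cells (FC) of the lens in cigarette smoke (CS)-exposed mice and in untreated control (Ct) mice of the same age. The factors are Hsf4, Maf, Pitx3, Prox1, Mafg, Sox1, Pax6, Six3, Mafk and Gata3. They were chosen by gene symbol, by a rule that uses no measured value but was set with earlier results of these data known, and are 10 of the 35275 genes listed with an FPKM value, the number of fragments divided by gene length and by the mapped reads of the library. All mice were of the C57BL/6 strain in the labels (C57BL/6J in the methods), with no allele or transgene named in the labels, which separate the groups by exposure alone. CS-exposed mice spent 5 hours/day and 5 days/week in a whole-body smoke chamber for 3.5 months, starting around birth, and untreated Ct mice were kept in the animal facility for the same time, so that smoke and the stay in the chamber cannot be told apart. Each of the 8 libraries, 4 per group, came from FC of the right eyes of a pool of 4 mice, separated from the lens epithelium under a microscope. The pools were male or female, and which library is which was not given. A pool gives a single value for 4 animals, so the spread between libraries is the spread between pools, and in such bulk RNA fewer cells of a type and less RNA per cell cannot be told apart.

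The lens grows from an epithelium on its front surface, whose cells leave the cell cycle at the equator, elongate into FC, fill with crystallins and later degrade their nuclei. The factors described here act along this path. Pax6 and Six3 belong to the regulators of the eye field and are known for their roles in the early lens and its epithelium. Pitx3 is a homeodomain factor needed for the lens to form, and Prox1, Maf and Sox1 drive elongation of FC and activate crystallin genes. Hsf4 is the heat shock factor of the maturing lens, Mafg and Mafk are small MAF proteins that bind DNA as dimers, and Gata3 is a zinc finger factor tied to the exit of FC from the cell cycle.

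The libraries held an estimated 18100000 to 23300000 fragments. Their relative depth was found from the steps of the low FPKM values, each of which is worth 1 read. The absolute number assumes exon lengths of GENCODE M21 and is the most frequent estimate. It was given by 574 of 8634 genes with a length and at least 50 reads. Markers of FC dominated, with a summed level of 19876 to 22076 FPKM in untreated Ct and 21817 to 22070 FPKM in CS-exposed libraries. The 8 markers of lens epithelium, all above 0 in every library, summed to 390 to 552 FPKM in untreated Ct and to 373 to 474 FPKM in CS-exposed libraries. The 15 markers of photoreceptors, 13 of which were above 0 in every library, summed to 12.1 to 33.7 FPKM and 37.1 to 112 FPKM, respectively. Those of retinal pigment epithelium summed to 1.75 to 3.16 FPKM and 3.11 to 25.9 FPKM, with Best1 at 0 in all libraries. Those of the inner retina summed to 5.47 to 7.42 FPKM and 5.82 to 8.64 FPKM, with Lhx1 at 0 in all libraries. Most of this sum was Glul, at 4.55 to 6.56 FPKM and 5.60 to 7.68 FPKM. The other markers of this list had means of at most 0.194 FPKM, and 3 of the 10 were above 0 in every library. Xist, the RNA of the inactive X chromosome, was between 0 and 0.0113 FPKM in replicates 1 and 2 of both groups and between 41.1 and 49.0 FPKM in replicates 3 and 4. Xist thus split the libraries within each group and did not separate the groups.

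Comparing the groups asks whether exposure to CS was accompanied by a different level of these factors in FC. Of the 10 factors, 9 reached the minimum of 1.0 FPKM in either group and were tested, and Gata3 did not. Only Hsf4 passed an unadjusted p of 0.05 in limma, at a higher level in CS-exposed lens FC, against 2.75% of the 9794 genes tested that did so in this direction, 2.08% in the other and 4.83% in either. No factor passed after Benjamini-Hochberg adjustment over all genes (limma adjusted p of at least 0.956), which 0.0102% of the genes tested passed. For the 8 other tested factors, the 95% interval of the difference included 0 and its ends lay between 0.825-fold and 1.27-fold of the untreated Ct level. Of the 9 tested factors, 6 were at a higher fitted level in CS-exposed libraries, and the median log2 fold change of the 9 was 0.05, beside 0.0043 for all genes tested. The direction reversed for Six3 and Mafk among these 6, and for Prox1, Mafg and Pax6, when certain single libraries were left out.

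**Figure D1:**
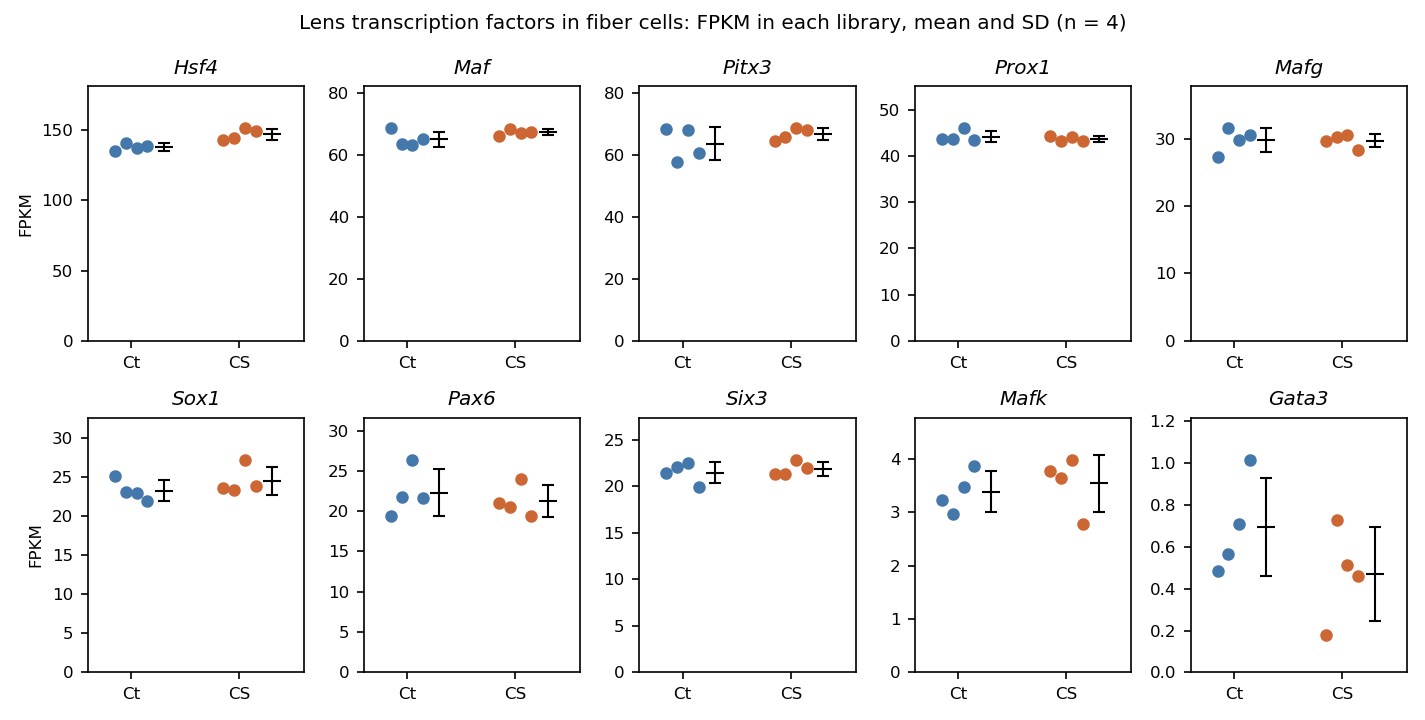
FPKM of the 10 lens transcription factors in each library (vertical axes, each starting at 0), for untreated Ct (Ct, blue) and CS-exposed (CS, orange) pools in the order of their replicate numbers, with the mean and SD of the 4 libraries beside them. Hsf4 is the factor whose CS-exposed values (143 to 151 FPKM) all lie above the untreated Ct values (135 to 141 FPKM), and the groups of the other 9 overlap.

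Hsf4 was at the highest level of the 10, with a mean of 143 FPKM over the 8 libraries, and 253 of the listed genes, Hsf4 itself included, were at or above this mean. The gene lies at chr8:105269801-105275845 on the plus strand of GRCm38. In untreated Ct lens FC it measured 135, 141, 138 and 139 FPKM in replicates 1 to 4, and in CS-exposed lens FC 143, 144, 151 and 150 FPKM. Every CS-exposed value was above every untreated Ct value, as was so for 1.8% of the genes tested, and the groups did not overlap in either direction for 3.08%. The means were 138 ± 2.55 and 147 ± 4.03 FPKM (SD, n = 4 per group), a difference of 6.47%. On the log2(FPKM + 0.1) scale the difference was 0.09 (SE 0.04), or 1.06-fold with a 95% interval of 1.003 to 1.13. The limma p was 0.0416 (adjusted p = 0.956), and the exact two-sided permutation p was 0.0286, the smallest that 4 against 4 libraries can give. The call held in 11 of 21 settings. It was lost with centring on the median and quantile normalization, with eBayes without a trend (limma p of 0.164), with limma-voom on recovered reads (p of 0.0608), with the replicate number as a block (p of 0.0721), and when single libraries were left out (untreated Ct replicates 1, 3 and 4 and CS-exposed replicates 3 and 4), with limma p of 0.0619 to 0.104 without them. With low and high Xist as a term of the fit, the limma p was 0.0429. Photoreceptor markers, which were higher in CS-exposed libraries, moved with Hsf4 across the groups (r = 0.66, rho = 0.71, exact permutation p = 0.0713 and 0.0576, adjusted p = 0.357 and 0.384, n = 8), whereas r was 0.38 without the 2 most extreme libraries and 0.05 within the groups. Their part in the difference in Hsf4 was not tested.

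Among the listed large MAF proteins, which carry an activation domain, Maf was at the highest level in FPKM, and its gene lies at chr8:115682942-115707794 on the minus strand. Maf measured 68.4, 63.3, 63.2 and 65.0 FPKM in untreated Ct and 66.1, 68.4, 67.1 and 67.4 FPKM in CS-exposed lens FC. Untreated Ct replicate 1 was as high as the highest CS-exposed library, and the groups overlapped (65.0 ± 2.42 and 67.2 ± 0.927 FPKM, SD, n = 4). The difference on the log2 scale was 0.05 (SE 0.05), with a 95% interval of 0.966-fold to 1.11-fold (limma p = 0.298, exact permutation p = 0.171).

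The small MAF proteins lack an activation domain and act through their partners, and the pair measured here differed in level. Mafg (chr11:120625117-120633600, minus strand) measured 27.3, 31.5, 29.8 and 30.6 FPKM in untreated Ct and 29.6, 30.2, 30.5 and 28.3 FPKM in CS-exposed lens FC. Its group means, 29.8 ± 1.82 and 29.7 ± 0.975 FPKM (SD, n = 4), gave the smallest difference of the tested factors, with a log2 fold change of -0.0025 (SE 0.06) and a 95% interval of 0.911-fold to 1.09-fold (limma p = 0.967, exact permutation p = 0.914). Mafk (chr5:139791513-139802653, plus strand) was lower than Mafg in every library, and the ratio of the FPKM of Mafg to that of Mafk was 8.69 ± 1.10 (SD over 8 libraries). Mafk measured 3.23, 2.98, 3.47 and 3.87 FPKM in untreated Ct and 3.76, 3.65, 3.98 and 2.78 FPKM in CS-exposed lens FC. The lowest library, CS-exposed replicate 4, and the highest, CS-exposed replicate 3, belonged to the same group. With 182 to 261 reads per library, the counting error of Mafk alone was 6.19% to 7.41%, and its interval of 0.849-fold to 1.27-fold was the widest of the tested factors (limma p = 0.682, exact permutation p = 0.686).

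Prox1 (chr1:190118035-190170714, minus strand), the prospero homeobox factor of elongating FC, varied least. It measured 43.6, 43.7, 45.9 and 43.5 FPKM in untreated Ct and 44.3, 43.2, 44.1 and 43.1 FPKM in CS-exposed lens FC. Its coefficient of variation over the 8 libraries was 2.05%, against a counting error of 1.09% to 1.27% from its 6227 to 8453 reads. Untreated Ct replicate 3 stood above the other libraries, and without it the log2 fold change of -0.02 (SE 0.05, 95% interval 0.921-fold to 1.06-fold, limma p = 0.734, exact permutation p = 0.629) became 0.0024.

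Pitx3 (chr19:46135685-46148326, minus strand), whose loss leaves mice without a lens, was close to Maf in level. It measured 68.3, 57.6, 67.9 and 60.4 FPKM in untreated Ct and 64.5, 65.6, 68.5 and 68.0 FPKM in CS-exposed lens FC. The untreated Ct libraries took the lower and upper parts of the range and the CS-exposed libraries lay closer together (SD 5.39 and 1.89 FPKM). The difference on the log2 scale was 0.07 (SE 0.06), with a 95% interval of 0.957-fold to 1.15-fold (limma p = 0.269, exact permutation p = 0.314). It was 0.026 without untreated Ct replicate 2.

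Sox1 (chr8:12395295-12400126, plus strand), an HMG box factor known to activate gamma-crystallin genes, measured 25.1, 23.0, 23.0 and 21.9 FPKM in untreated Ct and 23.6, 23.3, 27.2 and 23.9 FPKM in CS-exposed lens FC. CS-exposed replicate 3 stood apart from the others of its group, and this library also held the highest photoreceptor markers. The group means were 23.2 ± 1.35 and 24.5 ± 1.81 FPKM (SD, n = 4), and the log2 fold change was 0.07 (SE 0.07, 95% interval 0.947-fold to 1.17-fold, limma p = 0.317, exact permutation p = 0.343). Without CS-exposed replicate 3 the log2 fold change was 0.022.

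Pax6 (chr2:105668900-105697364, plus strand), the paired box factor of the eye field, was the most variable of the factors above 15 FPKM. It measured 19.4, 21.8, 26.3 and 21.7 FPKM in untreated Ct and 20.98, 20.5, 24.0 and 19.4 FPKM in CS-exposed lens FC, and replicate 3 was the highest of both groups. Its coefficient of variation was 10.9%, where counting error accounted for 1.92% to 2.42%. The log2 fold change was -0.07 (SE 0.10, 95% interval 0.825-fold to 1.10-fold, limma p = 0.497, exact permutation p = 0.543), and it was 0.015 without untreated Ct replicate 3.

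Six3 (chr17:85613608-85629302, plus strand), a sine oculis homeobox factor, measured 21.4, 22.1, 22.5 and 19.9 FPKM in untreated Ct and 21.3, 21.3, 22.8 and 21.9 FPKM in CS-exposed lens FC. Both the lowest library and the next to the highest were untreated Ct, and 3 of the 4 CS-exposed values lay within the untreated Ct range. The group means of 21.5 ± 1.14 and 21.8 ± 0.725 FPKM (SD, n = 4) gave a log2 fold change of 0.03 (SE 0.06, 95% interval 0.928-fold to 1.12-fold, limma p = 0.684, exact permutation p = 0.629).

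Gata3 (chr2:9857078-9890034, minus strand) was at the lowest level of the 10 and rested on 12 to 59 reads per library. It measured 0.485, 0.567, 0.709 and 1.01 FPKM in untreated Ct and 0.177, 0.727, 0.515 and 0.460 FPKM in CS-exposed lens FC. The groups overlapped, and counting error alone was 13.0% to 28.9% of the value. In the fit without a minimum, in which 1.93% of 21019 genes were lower in CS-exposed lens FC at an unadjusted p under 0.05, Gata3 had a log2 fold change of -0.54 (SE 0.38) and a limma p of 0.192. Its 95% interval of 0.379-fold to 1.25-fold leaves a wide range.

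**Figure D2:**
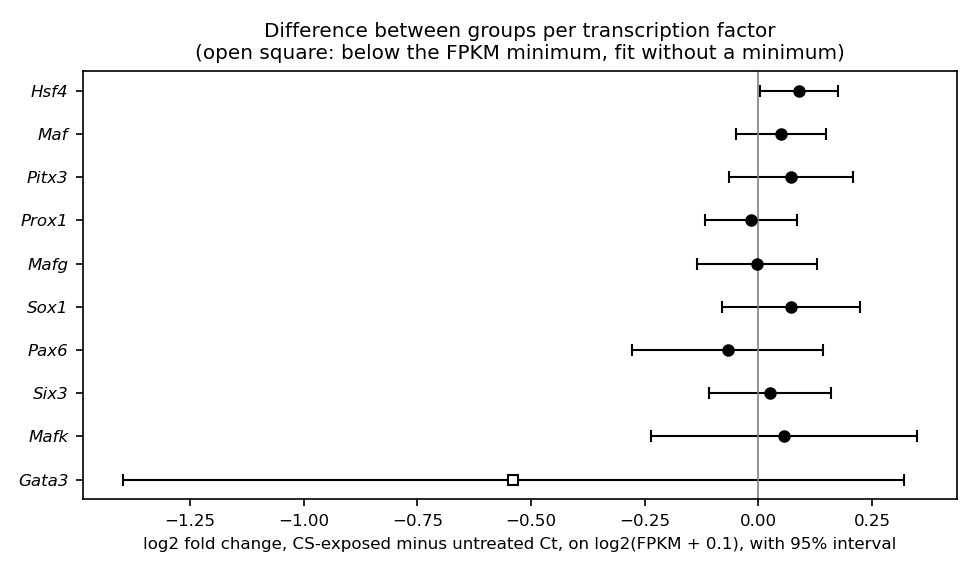
Difference between the groups for each factor (horizontal axis, log2 fold change, CS-exposed minus untreated Ct, on the log2(FPKM + 0.1) scale), with the 95% interval of the limma fit as a bar. The interval of Hsf4 lies just above 0, those of the other tested factors (filled circles) include 0, and that of Gata3 (open square, fit without a minimum) is the widest.

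In FPKM, which is scaled to gene length, the factors fell into steps with the authors' gene lengths. Hsf4 was 2.16 ± 0.0889 times as high as Maf (SD of the ratio over 8 libraries) and above it in 8 of 8 libraries. Maf and Pitx3 were not separated, since Maf was above Pitx3 in 5 of 8 libraries at a ratio of 1.02 ± 0.0546. Both were above Prox1 in 8 of 8 libraries, with Pitx3 at 1.48 ± 0.0914 times Prox1. Prox1 was in turn 1.48 ± 0.0719 times Mafg, and Mafg 1.25 ± 0.111 times Sox1, again in all 8 libraries. Sox1, Pax6 and Six3 overlapped, with Sox1 above Pax6 in 7 of 8 libraries and Pax6 above Six3 in 3 of 8. Six3 was 6.35 ± 0.943 times Mafk, and Mafk was above Gata3 in every library. The gene lengths behind these levels are the authors' own. They were estimated from the reads and the depth, and that depth was itself set with exon lengths of GENCODE M21. The authors' length found in this way is thus an estimate. For Sox1 this length, 4832 bases, equals the summed exons of GENCODE M21, while for Pax6 it was 4427 bases against 11694. With the M21 lengths the level of Pax6 would be 8.24 FPKM in place of 21.8 FPKM and that of Six3 14.6 FPKM in place of 21.7 FPKM, and the ratio of Pax6 to Six3 would be 0.563 ± 0.0534, with Pax6 lower in all 8 libraries. Sox1 would then stand above both in all 8 libraries, at 1.63 ± 0.0847 times Six3, and would overlap with Mafg, which would be above it in 6 of 8. Maf would be below Pitx3 in all 8 libraries, at a ratio of 0.869 ± 0.0466. The order within these neighbours thus depends on the gene model, whereas Hsf4 as the highest and Mafk and Gata3 as the lowest keep their places under both.

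The spread of the factors between libraries was set beside that of all genes. The median SD within groups over the 9794 genes tested was 0.17 on the log2 scale, and over the 1732 genes between 15 and 150 FPKM it was 0.09. Prox1, Hsf4 and Maf had SDs within groups of 0.03, 0.03 and 0.04, Six3 and Mafg 0.06 and 0.07, and Sox1 and Pitx3 0.09 each. Pax6, at 0.16, was the factor in this range of levels whose SD exceeded the median of such genes.

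Since pools of FC can hold epithelium and tissue from the back of the eye, each factor was compared with the mean log2 level of the epithelium and of the photoreceptor markers over the 8 libraries, 20 relations in all. For Pax6 and the epithelium score, Pearson's r was 0.87 (exact permutation p = 0.00516, Benjamini-Hochberg adjusted p = 0.103, n = 8) and Spearman's rho was 0.81 (exact permutation p = 0.0218, adjusted p = 0.384). With the 2 libraries of the most extreme score left out r was 0.80. Within groups, on deviations from the group means, r was 0.87 (approximate permutation p = 0.00556). That p, like the others within groups, exchanges deviations between the groups and is therefore approximate. The relation fell to r = 0.69 without untreated Ct replicate 3 (exact permutation p = 0.0756). It failed the correction for 20 relations.

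The epithelium score itself was 2.48, 2.81, 3.31 and 2.49 in untreated Ct and 2.29, 2.69, 2.87 and 2.30 in CS-exposed libraries, a difference of -0.23 that was within the spread of the libraries (exact permutation p = 0.429). As for Pax6, replicate 3 was the highest of both groups. Prox1 followed the epithelium score with r = 0.72 (rho = 0.40, exact permutation p = 0.0528 and 0.327, adjusted p = 0.352 and 0.594), and r was 0.70 with the same 2 libraries left out and 0.69 within groups (approximate permutation p = 0.0437). For Six3 and the epithelium score r was 0.56 (rho = 0.60, exact permutation p = 0.154 and 0.132, adjusted p = 0.402 and 0.427), 0.47 with these 2 left out and 0.70 within groups (approximate permutation p = 0.0518). With the photoreceptor score r for Six3 was as high, at 0.61 (rho = 0.21, exact permutation p = 0.104 and 0.619, adjusted p = 0.402 and 0.825) and 0.70 within groups (approximate permutation p = 0.0514), but -0.69 without the 2 libraries farthest from the median of that score, so this relation rests on those libraries.

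Against the photoreceptor score, Sox1 had r = 0.77 (exact permutation p = 0.0280, adjusted p = 0.280) and rho = 0.74 (exact permutation p = 0.0458, adjusted p = 0.384). With the 2 libraries of the most extreme score left out, CS-exposed replicate 3 among them, r was -0.05, so the relation rests on those libraries, while r within the groups, with all libraries, was 0.78 (approximate permutation p = 0.0257). The photoreceptor score was higher in CS-exposed libraries by 1.39 (exact permutation p = 0.0286), while Sox1 did not differ between groups beyond its spread.

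**Figure D3:**
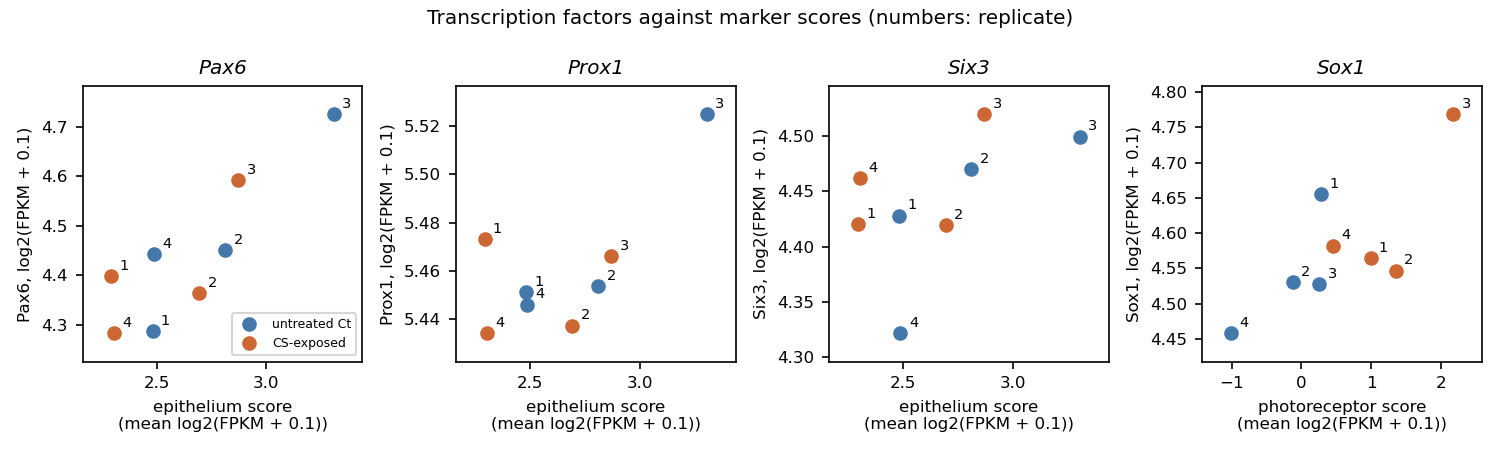
Pax6, Prox1 and Six3 against the epithelium score and Sox1 against the photoreceptor score, each as log2(FPKM + 0.1) on the vertical axis, with 1 point per library (blue, untreated Ct; orange, CS-exposed; numbers give the replicate). Pax6 is highest in replicate 3 of both groups, where the epithelium score is highest too, and the Sox1 relation (r = 0.77) depends on the points at the ends of the score.

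Among the tested genes, those whose pattern over the 8 libraries was most like that of a factor were not other factors of this set. The nearest gene to Prox1 was Akap7 (r = 0.97) and its nearest factor was Pax6 (r = 0.84, with 58 genes closer), and the nearest to Pax6 was Agtrap (r = 0.97), with Prox1 behind 112 genes. For Hsf4 the nearest gene was Rps4x (r = 0.97), and for Maf it was Abhd12 (r = 0.95). Pitx3 was nearest to Akap9 (r = 0.96), Mafg to Gm16006 (r = 0.95), Sox1 to Tusc2 (r = 0.97), Six3 to Zfp36l2 (r = 0.98) and Mafk to Adarb1 (r = 0.96). For these 7 factors, between 693 and 1545 genes were closer than the nearest factor of the set. With 8 libraries and 9794 genes, r of this size is a description only.

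Several factors share their locus with RNA of the opposite strand, and the sources used here do not say whether strand was used in counting. Without strand, reads from exon bases shared by a gene and its antisense partner cannot be told apart. Prox1os, which shares 133 exon bases with Prox1 (1.59% of its exons), was higher in FPKM than Prox1, at 76.7 ± 5.46 in untreated Ct and 75.0 ± 5.51 in CS-exposed lens FC (SD, n = 4, exact permutation p = 0.629). Six3os1, with 106 bases shared with Six3, measured 22.2 ± 1.53 and 21.7 ± 1.54 FPKM (SD, n = 4, exact permutation p = 0.629), close to Six3 itself. Pax6os1 shares no exon bases with Pax6 and was under the minimum. It measured 0.687, 0.623, 0.764 and 0.717 FPKM in untreated Ct and 0.518, 0.385, 0.433 and 0.347 FPKM in CS-exposed lens FC, from 11 to 26 reads per library. Every CS-exposed value of Pax6os1 was below every untreated Ct value, as was so for 1.29% of the 9794 genes above the minimum. Its log2 fold change in the fit without a minimum was -0.62 (SE 0.25), with a limma p of 0.0309 (adjusted p = 0.906) and an exact permutation p of 0.0286, where 1.93% of the genes of that fit were lower at an unadjusted p under 0.05. It was chosen for mention after its values were seen. Of the 5 tested genes listed beside the factors (Prox1os, Six3os1, Elp4, Fbxl8 and Gbf1), 0 had an unadjusted limma p under 0.05. Of all genes tested 4.83% did, so nothing particular to these genes can be read from this count. Elp4, Fbxl8 and Gbf1 do not overlap a factor in GENCODE M21, and Fbxl8 reached the minimum only through the CS-exposed group.

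The partners of the MAF factors were described next. Of 11 listed genes of the MAF and cap'n'collar (CNC) families, Keap1 included as the inhibitor of Nfe2l2, 6 were tested and 1 passed an unadjusted limma p of 0.05, at a higher level in CS-exposed lens FC (2.75% of all genes tested), and the median log2 fold change was 0.07. Nfe2l1, a CNC partner of the small MAF proteins, was at the highest level of them, with 34.2 ± 2.67 FPKM in untreated Ct and 34.6 ± 0.813 FPKM in CS-exposed lens FC (SD, n = 4, exact permutation p = 0.914). Nfe2l2, the CNC factor of the response to oxidants and electrophiles, measured 4.64 ± 0.226 and 4.93 ± 0.318 FPKM (SD, n = 4, log2 fold change 0.08, exact permutation p = 0.229). The gene that passed was Nrl, a large MAF protein of rod photoreceptors. Nrl measured 1.29, 0.878, 1.19 and 0.274 FPKM in untreated Ct and 2.45, 3.02, 6.40 and 1.74 FPKM in CS-exposed lens FC, with no overlap of the groups. Nrl reached the minimum of 1.0 FPKM only through the CS-exposed group, where it is high, so its test is given from the fit without a minimum, which is free of this choice. There its log2 fold change was 1.79 (SE 0.48, limma p = 0.00388, adjusted p = 0.906, exact permutation p = 0.0286). It is itself among the photoreceptor markers, and in the same fit 11 of all 15 had an unadjusted limma p under 0.05 at a higher level in CS-exposed lens FC (2.17% of all genes of that fit), with a median log2 fold change of 1.64. The part of photoreceptor RNA in the difference in Nrl was not tested.

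Of 30 other lens and eye field transcription factors, 14 were tested and 0 passed an unadjusted limma p of 0.05, a count near the 4.83% of all genes tested, with a median log2 fold change of -0.03. Sox2, an HMG box partner of Pax6, measured 36.6 ± 3.79 FPKM in untreated Ct and 38.9 ± 1.002 FPKM in CS-exposed lens FC (SD, n = 4, exact permutation p = 0.286). Foxe3, the forkhead factor of the lens epithelium, varied widely, at 33.1, 34.8, 64.0 and 25.1 FPKM in untreated Ct and 28.9, 32.5, 34.6 and 17.5 FPKM in CS-exposed lens FC. As for Pax6, its highest value was that of untreated Ct replicate 3, and the difference between groups was within the spread (log2 fold change -0.42, SE 0.26, exact permutation p = 0.343). In the fit without a minimum, Otx2 and Rax, homeobox factors of the retina, had unadjusted limma p of 0.0197 and 0.0381 at higher fitted levels in CS-exposed lens FC (adjusted p = 0.906 for both, exact permutation p = 0.0286 and 0.143), beside the same 2.17% of the genes of that fit. Otx2 measured 0, 0, 0.188 and 0.194 FPKM in untreated Ct and 0.249, 0.341, 0.213 and 0.749 FPKM in CS-exposed lens FC. Rax was listed at 0 in all 4 untreated Ct libraries and in CS-exposed replicate 1, and reached 0.613 FPKM in CS-exposed replicate 3, the library with the highest photoreceptor score. That fit takes genes above 0 in any library, so Rax entered it only through the CS-exposed group, where it is high. Its limma p is not free of this choice and is a description only. The part of RNA from the back of the eye in these values was not tested.

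Of the heat shock factors beside Hsf4 and their inhibitor Hsbp1, 3 genes were tested (Hsf1, Hsf2 and Hsbp1). Of these 0 passed an unadjusted limma p of 0.05, where 4.83% of all genes tested did. Hsf1, the factor of the stress response in most cells, measured 9.12 ± 0.648 and 9.41 ± 0.978 FPKM (SD, n = 4, exact permutation p = 0.657), and Hsbp1, which binds heat shock factors, measured 78.0 ± 4.75 and 77.3 ± 4.65 FPKM (SD, n = 4, exact permutation p = 0.8286). Of 8 coactivators and chromatin partners, all tested, 0 passed, beside the same 4.83%. Nothing particular to these lists can be read from either count.

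Genes that these factors are known to activate in the lens were then read as a group. Of 17 listed, 16 were tested and 0 passed an unadjusted limma p of 0.05 in either direction, where 4.83% of all genes tested did, so that nothing particular to the targets can be read from this count, with 10 at a higher fitted level in CS-exposed lens FC and a median log2 fold change of 0.03. Cryaa, the alpha-crystallin gene activated by Maf and Pax6, was the highest, at 97250 ± 3018 FPKM in untreated Ct and 93040 ± 2657 FPKM in CS-exposed lens FC (SD, n = 4, log2 fold change -0.06, limma p = 0.0608, exact permutation p = 0.0857). Crygd, a gamma-crystallin gene whose near-identical neighbours may share its reads, measured 32172 ± 1746 and 34106 ± 1607 FPKM (SD, n = 4, log2 fold change 0.08, limma p = 0.0772, exact permutation p = 0.171). Hspb1, a small heat shock protein gene, and Dnase2b, the nuclease that degrades the DNA of maturing FC, are targets of Hsf4. Hspb1 measured 4256 ± 111 and 4371 ± 146 FPKM (SD, n = 4, log2 fold change 0.04, exact permutation p = 0.200), and Dnase2b 70.1 ± 5.72 and 72.1 ± 3.99 FPKM (SD, n = 4, log2 fold change 0.04, exact permutation p = 0.629). Beside the higher Hsf4 values, these targets thus did not differ beyond their spread.

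Of the 13 targets with a promoter sequence, 5 carry letters that MAF or heat shock factors are known to bind, and 4 of these are shown because they link the factors above to genes measured in the same libraries. The sequences are the 250 bases before the RefSeq start site in GRCm38.p6, written on the strand of the gene, with the motif in capitals. The MAF motif searched was TGCTGAC, and those of heat shock factors were GAANNTTC and TTCNNGAA, on both strands. In Cryaa (chr17:31677681-31677930, plus strand) and Crybb1 (chr5:112255570-112255819, plus strand) the capitals mark TGCTGAC, which begins 108 and 84 bases before the start.
Cryaa: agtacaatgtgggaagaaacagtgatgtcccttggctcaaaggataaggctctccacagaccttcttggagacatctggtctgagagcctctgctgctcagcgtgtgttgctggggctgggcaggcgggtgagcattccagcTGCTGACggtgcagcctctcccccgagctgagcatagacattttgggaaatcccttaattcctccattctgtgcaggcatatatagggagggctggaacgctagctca
Crybb1: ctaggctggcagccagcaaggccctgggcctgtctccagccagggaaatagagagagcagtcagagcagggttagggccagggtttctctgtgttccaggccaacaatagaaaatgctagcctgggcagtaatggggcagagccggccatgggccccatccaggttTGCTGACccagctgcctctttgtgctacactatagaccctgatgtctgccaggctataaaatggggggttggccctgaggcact
In Hspb1 (chr5:135887669-135887918, plus strand) the capitals mark matches to GAANNTTC that begin 117 and 97 bases before the start, and in Dnase2b (chr3:146615599-146615848, minus strand) a match that begins 230 bases before it.
Hspb1: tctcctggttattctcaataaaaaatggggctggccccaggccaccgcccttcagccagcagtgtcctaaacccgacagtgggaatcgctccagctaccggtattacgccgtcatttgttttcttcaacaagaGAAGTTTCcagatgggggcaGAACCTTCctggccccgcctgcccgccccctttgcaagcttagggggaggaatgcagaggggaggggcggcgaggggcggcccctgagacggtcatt
Dnase2b: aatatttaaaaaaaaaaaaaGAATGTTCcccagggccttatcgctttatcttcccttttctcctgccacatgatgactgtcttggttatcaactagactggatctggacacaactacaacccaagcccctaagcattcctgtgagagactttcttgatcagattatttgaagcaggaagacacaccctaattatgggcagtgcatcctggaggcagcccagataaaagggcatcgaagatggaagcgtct

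TGCTGAC was found in 3 of the 13 targets with a promoter in the table (Cryaa, Cryba1 and Crybb1), in 0 of the 8 factors with one, and in 3.81% of all 32851 promoters. GAANNTTC was found in 2 of the 13 targets and 0 of the 8 factors, against 6.69% of all promoters. TTCNNGAA was found in Cryba1 among the targets and in Mafg and Pax6 among the factors, against 7.17% of all promoters. Both motif families occur in many promoters, and a match is a description of the letters. Crybb1, whose promoter is shown with the MAF motif, measured 14700 ± 225 FPKM in untreated Ct and 14565 ± 536 FPKM in CS-exposed lens FC (SD, n = 4, log2 fold change -0.01, exact permutation p = 0.629).

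**Figure D4:**
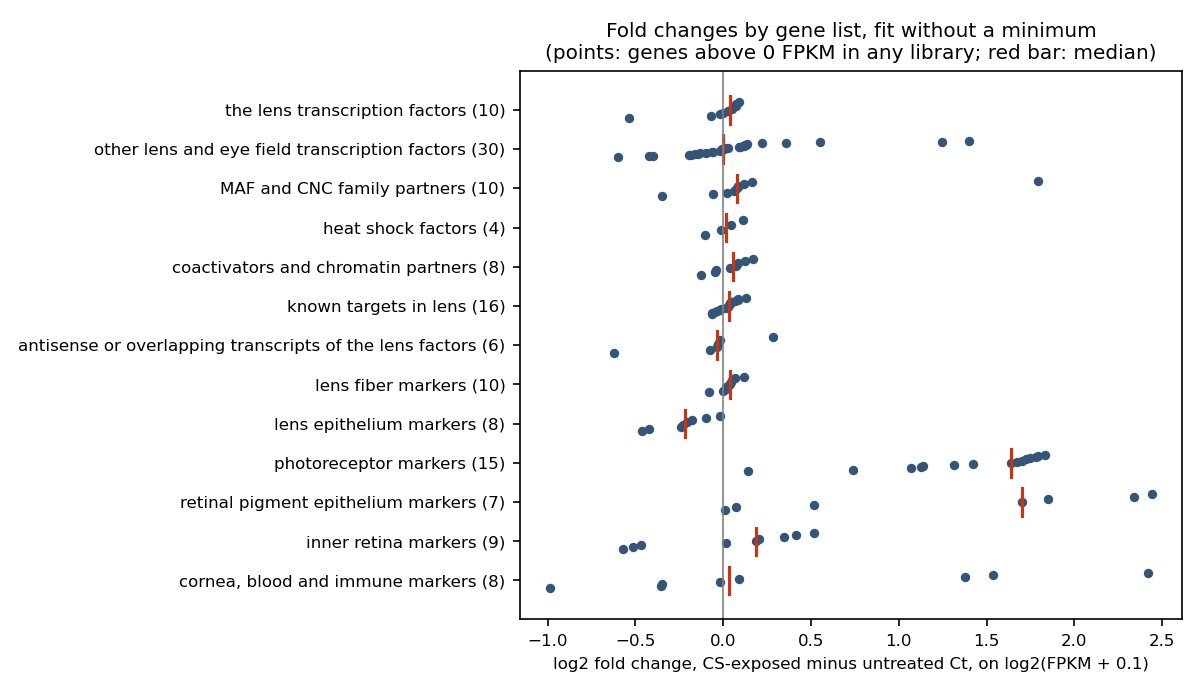
Difference between the groups (horizontal axis, log2 fold change, CS-exposed minus untreated Ct) in the fit without a minimum, for the genes of each list above 0 in any library, with their number in brackets, each gene as a point and the median as a red bar. The medians of the lens factors, their partners and their targets lie near 0, with Nrl (1.79) as the far point among the MAF and CNC partners and Otx2 (1.40) among the other factors, and the photoreceptor and pigment epithelium markers lie to the right (medians 1.64 and 1.70).

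The other marker lists were counted in the same way. Of 10 tested markers of FC, 1 passed an unadjusted limma p of 0.05, Lgsn, a protein of the lens with a glutamine synthetase fold, at 4239 ± 354 FPKM in untreated Ct and 4582 ± 127 FPKM in CS-exposed lens FC (SD, n = 4, limma p = 0.0499, adjusted p = 0.956, exact permutation p = 0.143), beside 2.75% of all genes tested. Without a minimum Lgsn had a limma p of 0.122, and 0 of the 10 passed. Of 6 tested markers of lens epithelium, 0 passed, at a median log2 fold change of -0.22, and all 8 were at a lower fitted level in CS-exposed lens FC without a minimum. The 4 tested markers of retinal pigment epithelium reached the minimum only through the CS-exposed group, so the whole list was read without a minimum. Of its 7 genes above 0, 4 had an unadjusted limma p under 0.05 at a higher level in CS-exposed lens FC (2.17% of all genes of that fit), and the median log2 fold change was 1.70. The only tested inner retina marker did not pass, and among 3 tested markers of cornea, blood and immune cells Hba-a1, a haemoglobin chain, had a limma p of 0.0378, but it reached the minimum only through the CS-exposed group. Without a minimum it had a limma p of 0.0521 (exact permutation p = 0.143), and 0 of the 8 genes of this list had an unadjusted p under 0.05.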

How the data were processed

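RNA of lens FC was sequenced in 8 libraries (4 untreated Ct, 4 CS-exposed). Paired reads of 150 bases had been aligned by the authors to GRCm38 with STAR 2.5, counted with HTSeq 0.6.1 and deposited as FPKM per library. Their own log2 fold change and p-value columns of the group comparison, and the group means, were also deposited by the authors and not used. Annotation release and use of strand are not given in the sources used here.

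Groups came from the labels. The members and lists were chosen with earlier results of these data known. Genes whose mean reached 1.0 FPKM in at least 1 group entered the test, on log2(FPKM + 0.1), where fold changes of low genes are understated, with limma 3.58.1 (R 4.3.3; trend, two-sided, Benjamini-Hochberg over 9794 genes), which was tested on simulated data. Single values were compared over all 70 assignments of libraries and correlations over all 40320 pairings (Python 3.11.15, scipy 1.17.1). For correlations within groups, deviations from group means were paired in the same way, also across the groups, so their p is approximate. Scores are means of log2(FPKM + 0.1) over listed markers with a mean of at least 0.1 FPKM. Whole reads, to within 0.02 reads, were found from the FPKM steps for 99.8% of the tested genes, and counting errors are 1 over the square root of the reads and cover counting alone. These reads were tested with limma-voom as an alternative. Of the whole table, 54 symbols are listed more than once, and of the listed genes Lim2, on several rows, was left out for this.

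Named are all members, the genes of the other lists with an unadjusted limma p under 0.05 and the 2 highest per list, and the gene and the factor most alike to each member. Marker lists are given mainly as counts. Some genes that this rule names are not reported here. Coordinates are from GENCODE M21 (GRCm38), promoters from a table of RefSeq sequences (GRCm38.p6), matched for 8 of the 10 factors (not for Maf and Hsf4). Figures were drawn with matplotlib 3.10.9. Protein, metabolite and metal data were not used here.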

Additional observations from a re-analysis of the deposited data

Results flagged for a closer look

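Each of the 10 factors and of 4 marker scores was checked in both groups for a library that stood apart by the gap to its neighbour relative to the range, 28 groups of 4 libraries in all, in which chance gives about 1 in 20, or 1.4. In 2 groups a library stood apart. Prox1 was at 45.94 FPKM in untreated Ct replicate 3, where the other untreated Ct libraries lay between 43.49 and 43.72 FPKM. Sox1 was at 27.15 FPKM in CS-exposed replicate 3, where the others lay between 23.27 and 23.86 FPKM. Untreated Ct replicate 3 also held the highest epithelium score (3.31) and CS-exposed replicate 3 the highest photoreceptor score (2.17), and the part of either in these values was not tested.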

How the results depend on the processing

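The fit was repeated under 20 alternatives, and of 180 repeated log2 fold changes of the factors 162 kept their direction and side of the threshold, 10 (all of Hsf4) lost the call and 8 reversed, each of the latter when a library was left out. Hsf4 passed an unadjusted limma p of 0.05 in 11 of 21 settings, at log2 fold changes of 0.06 to 0.10. It did not pass with centring on the median (0.09, p of 0.0857), quantile normalization (0.06, p of 0.113), eBayes without a trend (p of 0.164) or limma-voom on recovered reads (p of 0.0608), and no other factor passed, so the count of factors was 0 in these 4 settings. Leaving out single libraries, the count was 0 to 1, Hsf4 ranged from 0.08 to 0.10 (p of 0.0371 to 0.104), Prox1 from -0.024 to 0.0024, Mafg from -0.044 to 0.025 (0.025, 0.011 and 0.020 where it reversed), Pax6 from -0.13 to 0.015, Sox1 from 0.022 to 0.11, Pitx3 from 0.026 to 0.11, Maf from 0.04 to 0.07, Six3 from -0.010 to 0.049 and Mafk from -0.0023 to 0.17 (-0.0019 and -0.0023 where it reversed).

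A fit with the replicate number as a block was run too. Libraries of the same number deviated from their group means with correlations of 0.012, 0.078, 0.11 and 0.16 across genes, and not every library correlated best with its own number. Libraries of the same number also share the low or the high level of Xist, but neither this nor the labels show that they pair. With the replicate block, the factors passing were 0 (limma p of Hsf4 0.0721), the other listed regulators, partners and targets passing 3, and genes passing the adjusted threshold 5.

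Of all genes, 862 passed an unadjusted p of 0.05 without a minimum and 226 with a minimum of 5 FPKM, beside 473 (418 to 525 leaving out single libraries). The adjusted threshold was passed by 1 gene, by 0 without a minimum or without a trend, by 2 with limma-voom, and by 0 to 1 leaving out single libraries (0 without untreated Ct replicate 4). Of the other listed regulators, partners and targets, 1 passed (Nrl), against 4 without a minimum, 2 with a minimum of 0.5 FPKM, 0 with one of 5 FPKM, 2 each with median centring, without a trend and with robust eBayes, 3 with limma-voom, and 1 to 3 leaving out single libraries (2 without untreated Ct replicate 2 or CS-exposed replicate 3, 3 without untreated Ct replicate 1 or 4 or CS-exposed replicate 1 or 4). The count of factors with an exact p under 0.05 against the epithelium score was 1, with 2 at a pseudocount of 1, 2 on deviations from group means (by the approximate p) and 0 to 2 leaving out single libraries (0 without untreated Ct replicate 3, 2 without CS-exposed replicate 1 or 2). Against the photoreceptor score it was 1, with 0 to 2 (0 without untreated Ct replicate 2 or CS-exposed replicate 3, 2 without CS-exposed replicate 4). The cause of these changes was not tested, except that the minimum sets how many genes are tested.

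Chosen after seeing the data were low and high Xist as a term, which moved no call of a factor, and levels on the exon lengths of GENCODE M21, which gave 51.0 FPKM for Maf, 58.9 for Pitx3, 41.5 for Prox1, 26.1 for Mafg, 8.24 for Pax6, 14.6 for Six3 and 2.75 for Mafk. By the median over libraries, 6 of the 10 factors kept their place in the order. Reads were fewest, and counting errors largest, for Mafk and Gata3.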

Other observations

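Among the genes of the other lists, Etv5, an ETS factor downstream of fibroblast growth factor signals, measured 17.1 ± 0.652 FPKM in untreated Ct and 18.6 ± 1.01 FPKM in CS-exposed lens FC (SD, n = 4), with every CS-exposed value above every untreated Ct value (log2 fold change 0.12, SE 0.06, limma p = 0.083, exact permutation p = 0.0286). Ncoa6, a nuclear receptor coactivator, measured 3.27 ± 0.0855 and 3.70 ± 0.184 FPKM (SD, n = 4), again without overlap (log2 fold change 0.17, SE 0.09, limma p = 0.0942, exact permutation p = 0.0286). Groups did not overlap with CS-exposed higher for 1.8% of the genes tested. Both were chosen after their values were seen.

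Hes1, a repressor downstream of Notch, measured 3.19 ± 0.907 and 2.33 ± 0.274 FPKM (SD, n = 4, log2 fold change -0.40, SE 0.19, limma p = 0.0562, exact permutation p = 0.200), and Bach2, a CNC partner of small MAF proteins, 2.37 ± 0.344 and 1.86 ± 0.377 FPKM (SD, n = 4, log2 fold change -0.35, SE 0.17, limma p = 0.0634, exact permutation p = 0.114). Neither passed the unadjusted threshold, and both were chosen after their values were seen.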
